A study of Mus musculus with 2 samples.

Results

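The regions described here are open promoters with few CpG dinucleotides in the mouse kidney. In DNase-seq the enzyme DNase I cuts accessible DNA in isolated nuclei, and the cut ends are sequenced. The tissue was kidney from male mice, 25 days old, of B6CASTF1/J, which is a first-generation cross between C57BL/6J and CAST/EiJ. There was 1 group of 2 libraries, each from a biosample and animal number of its own, and no control group, so no test between animals could be run. Where a value is given for each library, replicate 1 comes before replicate 2. A promoter was the 500 bp on each side of any transcription start site (TSS) of a protein-coding gene, and its CpG ratio is the number of CpG dinucleotides over that from the C and G content, taken at the TSS where it is highest. Of 21938 protein-coding genes, 6401 had a CpG ratio under 0.3, and 852 of these had an accessible site (peak) in the promoter in both libraries. These 852 genes are the members, chosen by the presence of a peak in both libraries, so that their peaks and heights are given as a description. The comparison groups are 5227 genes of the same CpG range with no promoter peak in either library (closed genes) and 13477 open genes with a CpG ratio of at least 0.3 (higher-CpG genes).

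Most promoters of mammals are rich in CpG dinucleotides, lie in CpG islands free of DNA methylation and are accessible in nearly all tissues. Promoters poor in CpG are usually methylated and closed unless factors of a given cell type bind them, and many genes of differentiated cells have this kind of promoter. In the kidney these include the transporters and metabolic enzymes of the proximal tubule, which reclaims filtered solutes, and in that segment HNF1 and HNF4 factors are known regulators.

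Members of several kinds show what the sequence of such a promoter looks like. The stretches below come from the replicate 1 promoter peaks of 5 of the 25 highest members, chosen because they hold a searched motif, and capitals mark the bases in footprints of replicate 1, which are short runs protected from DNase I within a peak. All sequences are from the mm10 assembly (GRCm38) and run 5' to 3' on the strand of the gene, and each stretch was trimmed so that at most 30 exonic bases remained at an edge. Cyp4f13 lies on the minus strand at chr17:32947381-32947560, Aldh3b1 on the minus strand at chr19:3929779-3929860, Acy3 on the plus strand at chr19:3986481-3986599, Dglucy on the plus strand at chr12:100778961-100779086 and Tpcn2 on the minus strand at chr7:145283982-145284120.
Cyp4f13: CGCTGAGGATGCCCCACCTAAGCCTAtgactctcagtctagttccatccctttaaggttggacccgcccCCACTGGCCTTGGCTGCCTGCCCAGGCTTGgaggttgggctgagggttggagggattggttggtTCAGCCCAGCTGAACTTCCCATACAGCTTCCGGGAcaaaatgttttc
Aldh3b1: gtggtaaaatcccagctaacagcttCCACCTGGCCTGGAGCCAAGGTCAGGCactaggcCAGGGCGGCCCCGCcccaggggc
Acy3: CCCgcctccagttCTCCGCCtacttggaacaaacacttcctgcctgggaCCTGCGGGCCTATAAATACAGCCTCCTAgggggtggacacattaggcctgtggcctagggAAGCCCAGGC
Dglucy: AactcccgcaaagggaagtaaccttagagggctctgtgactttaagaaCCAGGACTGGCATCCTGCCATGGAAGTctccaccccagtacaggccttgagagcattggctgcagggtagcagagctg
Tpcn2: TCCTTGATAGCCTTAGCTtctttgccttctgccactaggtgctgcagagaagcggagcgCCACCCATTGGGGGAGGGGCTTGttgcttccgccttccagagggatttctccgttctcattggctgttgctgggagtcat
These stretches of 82 to 180 bases held 1 to 4 CpG dinucleotides each. Acy3 had a TATA box (TATAAA) at -30 to -25 bp from its 5' end, wholly inside a footprint. Aldh3b1 had a GC box (GGGCGG) wholly inside a footprint at 9 to 14 bp after its 5' end, and Tpcn2 had a CCAAT box inside a footprint at -44 to -40 bp. A second GC box of Aldh3b1, at 17 to 22 bp, lay only partly inside a footprint. A second CCAAT box of Tpcn2, at 8 to 12 bp, lay outside the footprints of replicate 1. The CCAAT and GC boxes of Cyp4f13 and the CCAAT box of Dglucy lay outside them too.

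The next set shows sites of the HNF1 motif that lay in a footprint in both libraries, with 30 bases on each side and the match in capitals. These genes, and those of the HNF4 set after them, were chosen after their values were seen. Tmed6 lies on the minus strand at chr8:107065657-107065726. Golt1a lies on the plus strand at chr1:133309731-133309800 and Cdhr2, a cadherin that links brush border microvilli, on the plus strand at chr13:54701379-54701448. Pkhd1, the gene of fibrocystin that is mutated in recessive polycystic kidney disease, lies on the minus strand at chr1:20618097-20618166. Prodh2, the hydroxyproline dehydrogenase, lies on the plus strand at chr7:30493500-30493569.
Tmed6: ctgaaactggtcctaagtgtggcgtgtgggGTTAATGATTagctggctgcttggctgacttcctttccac
Golt1a: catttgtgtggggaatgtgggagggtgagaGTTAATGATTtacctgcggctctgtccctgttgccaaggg
Cdhr2: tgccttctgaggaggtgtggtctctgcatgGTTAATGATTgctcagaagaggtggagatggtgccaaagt
Pkhd1: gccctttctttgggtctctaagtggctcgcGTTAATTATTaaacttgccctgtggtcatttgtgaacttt
Prodh2: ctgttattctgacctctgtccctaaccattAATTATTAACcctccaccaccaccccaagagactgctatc
The matches began 39 to 92 bp before the 5' end of each gene: at -52 bp in Tmed6 and Cdhr2, -39 bp in Golt1a, -72 bp in Pkhd1 and -92 bp in Prodh2. In Prodh2 the motif ran on the strand opposite to the gene.

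The last set shows matches of the longer HNF4 motif (CAAAGTCCA) in footprints of both libraries, in capitals with the bases around them. Susd2, a membrane protein, lies on the minus strand at chr10:75644065-75644133, Aspdh, an aspartate dehydrogenase domain protein, on the plus strand at chr7:44465353-44465420 and Nat8, which acetylates cysteine conjugates on the way to mercapturic acids, on the minus strand at chr6:85832239-85832307.
Susd2: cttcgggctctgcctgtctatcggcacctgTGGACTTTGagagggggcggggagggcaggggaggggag
Aspdh: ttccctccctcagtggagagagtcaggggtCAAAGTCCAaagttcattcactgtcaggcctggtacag
Nat8: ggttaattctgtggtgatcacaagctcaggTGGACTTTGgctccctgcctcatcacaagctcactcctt
The match of Aspdh ended at the annotated 5' end itself, and those of Susd2 and Nat8 began at -112 and -195 bp. In Susd2 and Nat8 the motif ran on the strand opposite to the gene, so the capitals show its reverse complement.

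The members were 13.3% of the 6401 low-CpG genes (exact 95% binomial interval 12.5 to 14.2%), beside 86.7% of the 15537 higher-CpG genes and 65.3% of all protein-coding genes. Intervals here are over genes and cover counting error only. The share went up with the CpG ratio inside the low range, from 3.36% of 298 genes under 0.05 to 28.0% of 960 genes from 0.25 to 0.3. It went on to 40.2% from 0.3 to 0.35. Sensory receptor genes, which form large families used mainly in sensory tissue, made up part of the closed genes. Without them 840 of 4949 low-CpG genes were open, which is 17.0%, and the share still went from 4.04% in the lowest class to 30.03% in the highest. Another 322 low-CpG genes had a promoter peak in 1 library only, 65 in replicate 1 and 257 in replicate 2, the library with more peaks overall (177001 against 125393). Their peaks were low, with median heights of 0.3504 and 0.3527 in arbitrary units. The highest of them were Syne4 at 1.20, Capn8 at 1.11, Adh4 and Exoc3l4 at 1.07 and Apoc1 at 1.00, all in replicate 2 only.

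**Figure D1:**
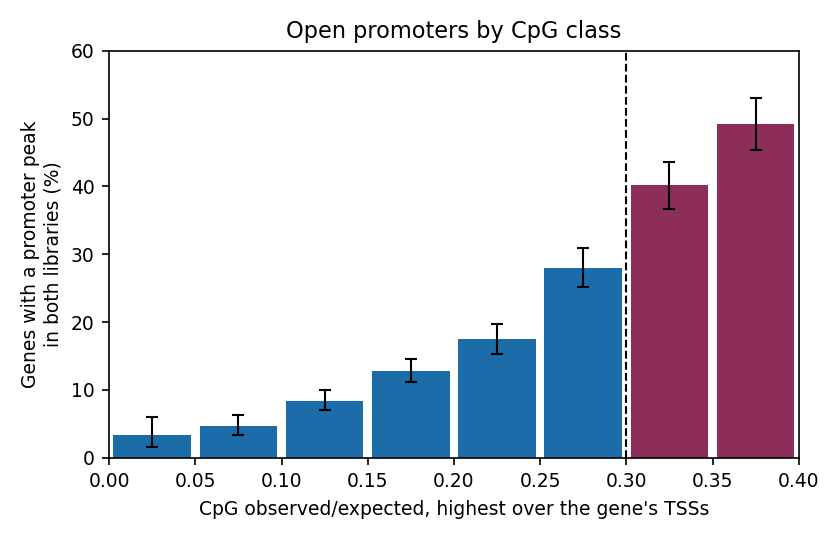
Bars show the percentage of protein-coding genes with a promoter peak in both libraries, by class of CpG observed over expected, with exact 95% binomial intervals. Blue classes hold the members, the dashed line marks the limit of 0.3, and the share goes from 3.36% in the lowest class to 28.0% just below the limit and 49.2% in the last class.

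Genes near the limits describe the edge of the set. The members with the CpG ratio nearest below 0.3 were Col4a6, a basement membrane collagen chain, Abcc2, an export pump for conjugated anions, and Kctd12b, with ratios of 0.2996, 0.2993 and 0.2991. The open genes nearest above it were Zfp937, 3300002I08Rik and Lctl, with ratios of 0.3001, 0.3003 and 0.3003. The nearest peak of Cby3 lay 499 bp from a TSS in both libraries and counted as a promoter peak, while that of Tmem270 lay 528 bp away with heights of 13.3 and 9.74 and did not. In 689 members (80.9%) the nearest peak of each library was at most 100 bp from a TSS, and in 77 (9.04%) it was over 250 bp away in at least 1.

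The members' peaks were lower than those of other open promoters. Peak height is the authors' signal for each site. Its median over the members was 1.17 and 1.34, with quartiles of 0.647 to 2.36 and 0.749 to 2.68, against 8.02 and 7.55 over higher-CpG genes. Among all peaks of their library, promoters or not, the members' median height stood at percentile 60.6 and 70.3, and that of higher-CpG genes at 93.5 and 94.6. In bulk tissue a low peak in few cells and in many cells cannot be told apart. Height went up with the CpG ratio also inside the set, from medians of 0.509 and 0.554 under a ratio of 0.05 to 1.41 and 1.60 from 0.25 to 0.3. Over the members, the 2 animals gave similar heights. The log2 ratio of replicate 2 over replicate 1 had a median of 0.19 and an SD of 0.45, and 97.3% of members lay within 2-fold of that median. The highest peaks overlapped in 816 of 852 members. The rule required a peak in both libraries, so these values leave out the 322 low-CpG genes with a peak in 1 library only. The stricter of the authors' peak lists held a promoter peak of 657 members (77.1%) in both libraries.

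**Figure D2:**
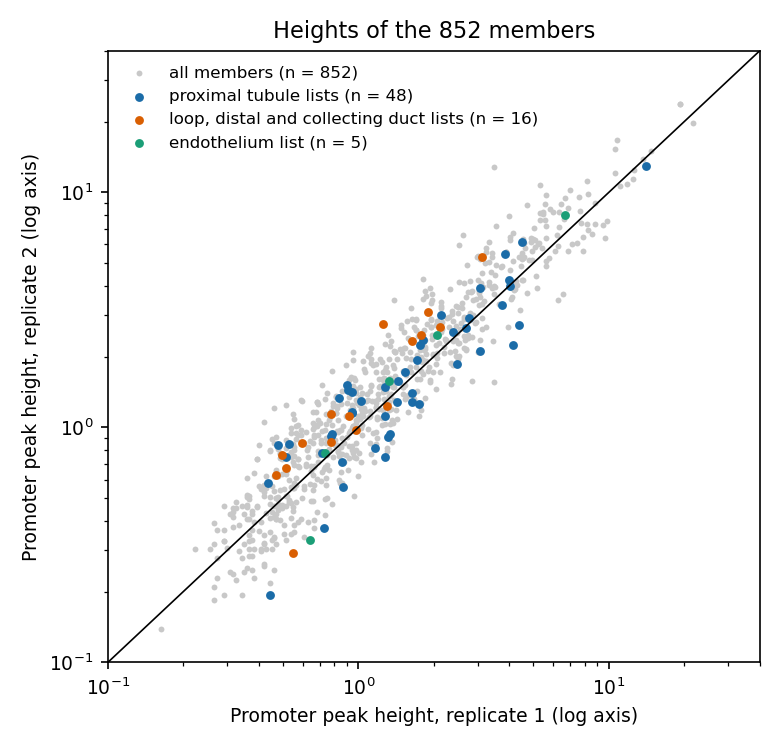
Each point is one of the 852 members, placed by its promoter peak height in replicate 1 and replicate 2 (log axes, arbitrary units), with members of the nephron and endothelium lists in colour and the line of equal height. Heights ran from 0.162 and 0.139 to 21.8 and 23.8, and the proximal tubule genes lay over most of that range, with Acy3 the highest of them.

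The highest low-CpG promoters belonged to metabolic enzymes, membrane proteins and immune genes alike. Tmem176b and Tmem176a, which encode related intracellular membrane proteins, shared one peak of height 19.1 and 23.8 between their divergent starts. Cyp4f13, a cytochrome P450 of fatty acid hydroxylation, had 21.8 and 19.8, and its relative Cyp4f16 had 8.80 and 9.04. Enzymes of amino acid and aldehyde breakdown followed. Aldh3b1, an aldehyde dehydrogenase, had 14.8 and 14.99, and Pipox, the peroxisomal sarcosine and pipecolate oxidase, had 13.7 and 13.8. Acy3, the aminoacylase that acts on mercapturic acids in the proximal tubule, had 14.1 and 13.0. Dglucy, the mitochondrial D-glutamate cyclase, had 10.8 and 16.7, and Sardh, the mitochondrial sarcosine dehydrogenase, had 12.4 and 11.4. Hsd3b7, an enzyme of bile acid synthesis, had 12.6 and 12.4.

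Among membrane and transport genes at the top, Tpcn2, a cation channel of lysosomes, had 10.6 and 12.1. Fcgrt, the neonatal Fc receptor that salvages IgG and albumin, had 8.20 and 11.1. Cd59a, an inhibitor of the complement membrane attack complex, had 6.71 and 9.49. Genes best known from immune cells or nucleic acid sensing were Trex1, a DNA exonuclease (7.58 and 9.55), Tnfaip8l2 (9.49 and 7.29) and Akna (7.66 and 8.33). The apoptosis effector Bak1 had 8.81 and 7.36, and Osgin1, a gene induced by oxidative stress, had 8.16 and 7.35. The rest of the 25 highest were Gngt2, Sh3tc1, Scgb1c1, Klhdc7a, Cbln3, Naa80 and Tmem204, with heights of 6.41 to 15.3. The peaks of Cbln3 and Naa80 also lay within 500 bp of a TSS of Khnyn and Hyal3, which have CpG ratios of at least 0.3. Such sharing was rare: it held for 7 members (0.822%), while 59 members (6.92%) shared their peak with a TSS of any other gene.

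At the other end, Gm14418 had the lowest heights, 0.162 and 0.139, followed by Iigp1, an interferon-inducible GTPase, with 0.265 and 0.184 and Gm4951 with 0.265 and 0.209. The 5 members with the largest height ratio between the animals were all higher in replicate 2. These ratios were not centred on the members' median log2 ratio of 0.19 towards replicate 2, which favours that direction. Ugt2b38 went the other way, with 0.444 and 0.194. Samd9l, an interferon-inducible antiviral gene, had 3.48 and 12.8, and Vwa5a had 0.461 and 1.21. Htr2b, a serotonin receptor, had 0.419 and 1.06, 9230104L09Rik had 2.61 and 6.57, and C1s1, a protease of the classical complement pathway, had 1.38 and 3.48. With 1 library per animal, these differences have no replicate check.

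Genes of the nephron were well represented among the members, although the lists were drawn up with earlier results of these data known. Of 87 low-CpG genes in 8 lists of nephron and podocyte genes, 64 (73.6%) were members, and of 114 in 10 lists of other cell types, 19 (16.7%) were, against 13.3% of all low-CpG genes. Peak presence chose the members, so these counts are a description. Of the higher-CpG genes of the same lists, 15 of 15 proximal tubule transporters, 7 of 10 loop of Henle genes, 8 of 10 principal cell genes, 11 of 11 podocyte genes and 12 of 12 endothelial genes were open, beside 86.7% of all higher-CpG genes. In the lists of immune cells and of heart and skeletal muscle 0 of 4 and 2 of 6 were open.

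In the proximal tubule, 18 of 26 transporters, 26 of 31 enzymes and 4 of 6 brush border peptidases were members. Median heights of the transporters were 1.49 and 1.34, close to those of all members. Slc34a1, the main phosphate transporter of the brush border, had 4.13 and 2.24, and Slc23a1, a vitamin C transporter, had 3.06 and 3.91. Slc6a19, which takes up neutral amino acids, had 3.07 and 2.12, and Slc26a1, a sulfate transporter, had 2.13 and 2.996. Among the enzymes below Acy3, Cyp4b1 had 3.85 and 5.45, and Cyp2d26 had 4.03 and 4.01. Among the peptidases and other brush border hydrolases, Treh, which splits trehalose, had 4.49 and 6.16, Ggt1, which starts the breakdown of glutathione, had 2.77 and 2.92, Cndp1, a carnosine dipeptidase, had 1.77 and 2.25, and Xpnpep2, an aminopeptidase, had 0.940 and 1.16.

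Some proximal tubule genes of the same CpG range had no promoter peak in either library. Slc22a8, an organic anion transporter, was closed by this rule, with its nearest peak 1652 bp from a TSS in both libraries at heights of 1.496 and 1.06. Slc22a13 had its nearest peaks 1558 and 1618 bp away, and Slc22a30 43375 and 2673 bp away. Ugt2b5, a glucuronosyltransferase, and Akr1c21, an aldo-keto reductase, were closed too, with nearest peaks at least 2883 bp from a TSS. Mep1b, the meprin beta subunit, was the closed peptidase.

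In the loop of Henle 7 of 8 low-CpG genes were members, with median heights of 1.64 and 2.47. Pkhd1 had 1.89 and 3.09, and Bsnd, which encodes barttin, had 2.11 and 2.68. Umod, which encodes the main protein of normal human urine, had a CpG ratio of only 0.0215 and heights of 1.64 and 2.34. Cldn19, a tight junction claudin, was the closed gene of that list, with nearest peaks 1014 and 974 bp from a TSS. The 3 low-CpG genes of the distal convoluted and connecting tubule list were all members at low heights: Tmem52b with 0.778 and 0.869, Klk1, tissue kallikrein, with 0.496 and 0.760, and Trpv5, the apical calcium channel, with 0.547 and 0.293. None of the 3 kept a promoter peak in the stricter list in both libraries.

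In collecting duct principal cells 3 of 4 were members: Avpr2, the vasopressin receptor (0.914 and 1.11), Aqp4, a basolateral water channel (0.598 and 0.859), and Fxyd4, a regulator of the sodium pump (0.513 and 0.671). In intercalated cells 3 of 8 were members, all subunits of the proton pump. Atp6v0a4 stood out with 3.13 and 5.33, beside 0.778 and 1.14 for Atp6v1b1 and 0.470 and 0.626 for Atp6v0d2. The closed genes of that list included Slc4a1, the anion exchanger, Aqp6, a water channel of intracellular vesicles, and Atp6v1g3, another pump subunit. Their nearest peaks lay 2215 to 4720 bp from a TSS. Nphs1, the only low-CpG podocyte gene, had a peak in replicate 2 only.

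Of the other cells of the kidney, endothelium had all 5 of its low-CpG genes among the members. Plat, tissue plasminogen activator, had 6.70 and 8.03, Cdh5, the endothelial cadherin, had 2.07 and 2.46, Pecam1 had 1.32 and 1.58, and Icam2 had 0.735 and 0.775. Stroma and smooth muscle had 3 of 8, with 0.325 to 0.820 and 0.348 to 0.969: Col3a1, a fibrillar collagen, Dcn, the proteoglycan decorin, and Acta2, smooth muscle actin. Macrophages and other immune cells had 2 of 20, Laptm5 and Lyz2, at 0.461 in replicate 1 and 0.343 and 0.248 in replicate 2.

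Lists of other organs had shares on both sides of the 13.3% of all low-CpG genes, from 0% to 33.3% in intestine. Epidermis had 0 of 9, heart and skeletal muscle 0 of 15 and male germ cells 0 of 5. The 95% upper bounds of these shares were 33.6%, 21.8% and 52.2%, all above 13.3%. Pancreas had 1 of 10, Ins2, with 0.410 and 0.298. Erythroid cells had 1 of 10, Epor, the erythropoietin receptor, with 1.15 and 1.83, while all 4 listed globin genes were closed. Hepatocyte secretory genes had 3 of 20: Fga, a fibrinogen chain (1.39 and 1.79), Apoc3, an apolipoprotein (1.05 and 1.78), and Itih1 (0.479 and 0.452). Intestine had 4 of 12, Guca2b, Vil1, Apoa4 and Rbp2, with 0.316 to 1.71 in replicate 1. Vil1 encodes villin, a protein of the microvilli that intestine and proximal tubule share.

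**Figure D3:**
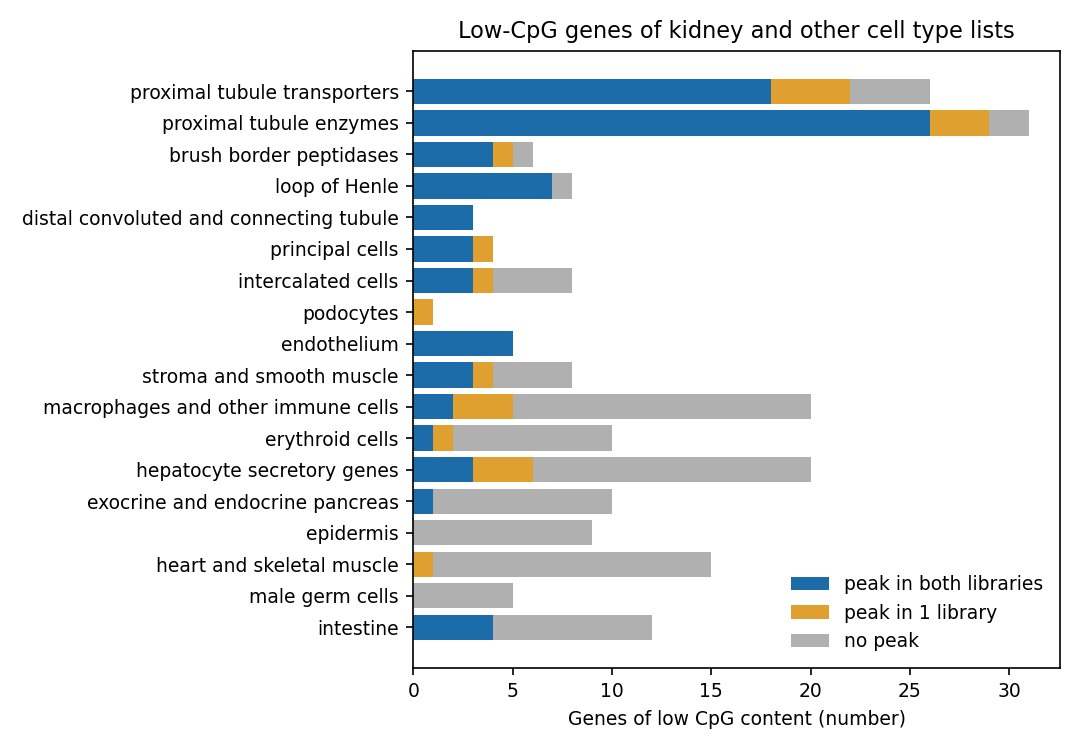
Bars count the low-CpG genes of 18 lists by state: a promoter peak in both libraries (members), in 1 library or in none. The proximal tubule lists hold 18 of 26, 26 of 31 and 4 of 6 members, and epidermis, heart and skeletal muscle and male germ cells hold none.

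Gene families, defined from symbols, differed in how many of their low-CpG genes were members, beside 13.3% of all low-CpG genes. Solute carriers gave 34 members of 83 low-CpG genes (41.0%), with median heights of 1.49 and 1.65. Aldo-keto reductases and alcohol or aldehyde dehydrogenases gave 11 of 21, UDP-glucuronosyltransferases 8 of 19, carboxylesterases 7 of 19 and cytochrome P450 enzymes 20 of 80. Complement and coagulation factors gave 12 of 24, and guanylate-binding and interferon-induced proteins 17 of 36. Other immune families lay on both sides of that share. C-type lectins gave 5 of 22 and CD antigens 10 of 56, shares of 22.7% and 17.9%. Interleukins and their receptors gave 6 of 45, defensins 5 of 59 and chemokines 2 of 24, shares of 13.3%, 8.47% and 8.33%. Killer cell lectin-like receptors gave 0 of 21 and MS4A genes 0 of 16, with 95% upper bounds of 16.1% and 20.6%, which lie above 13.3%. Families used in other cells gave almost none: 10 of 1076 olfactory receptors (0.929%), 0 of 327 vomeronasal receptors and 1 of 72 keratins and keratin-associated proteins, which was Krt80. Predicted genes without a symbol gave 46 of 1257. In all, 297 members were in a family or list, and 555 were in neither.

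Some related members stood together. Of the 852, 279 lay in chains in which neighbouring members were at most 100 kb apart, a number that depends on gene density and was not compared with other genes. The largest, of 8 members on chr6:48569696-48991722, held 3 Gimap genes of lymphocyte GTPases beside Tmem176a and Tmem176b. Chains of 6 held the class II antigen presentation genes H2-DMb2, H2-DMb1, H2-Ob, H2-Ab1, H2-Aa and H2-Eb1 on chr17:34143307-34316674, guanylate-binding proteins on chr5:105014150-105293698, and Trim antiviral genes on chr7:104263386-104465193. H2-Eb1 had 6.26 and 5.88, and H2-Aa had 4.22 and 3.89. A chain of 5 on chr8:104831572-105021178 held only Ces2 carboxylesterases, and one of 4 on chr7:119462711-119662515 held Umod with Acsm5, Acsm2 and Acsm1, which activate medium-chain acids. Near-identical copies in such families can share reads, and how these were treated upstream was not tested. The 852 members had 841 distinct highest peaks in each library. No member lay on the Y chromosome, which held 146 low-CpG genes.

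The rule placed the members' peaks within 500 bp of a TSS, and inside that window most lay close to it. Peak midpoints had a median of -22 and -28 bp from the nearest TSS, with quartiles of -90 to 34 and -91 to 33 bp, and the peak covered a TSS in 58.7% and 60.4% of members, against 74.0% and 70.1% of higher-CpG genes. In 794 members (93.2%) both libraries had a peak within 500 bp of the 5' end of the gene. For the 50.5% of members with 1 TSS the rule itself required this. Outside the promoter, members had a median of 2 and 3 further peaks within 10 kb of the 5' end, as higher-CpG genes did, and closed genes had a median of 0 in both libraries. At least 1 such peak was seen at 78.4% and 87.2% of members and at 34.8% and 39.1% of closed genes, or 42.7% and 48.7% of closed genes without sensory receptors.

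Other features of the members' promoters and genes were compared with closed genes of the same CpG range. GC content is not independent of the rule, since the C and G counts enter the CpG ratio. The promoters had a median GC content of 50.9%, against 43.5% in closed genes, 45.6% in closed genes without sensory receptors and 59.3% in higher-CpG genes. Repeats covered a median of 11.3% of the window, against 14.7% in closed genes. Median gene length was 14.2 kb against 6.96 kb, and the nearest TSS of an open higher-CpG gene was 38.6 kb away against 146 kb. In closed genes without sensory receptors these medians were 14.4%, 7.99 kb and 96.8 kb. The closed genes also had a lower median CpG ratio (0.156 against 0.213) although both groups are under 0.3. Motif shares are therefore also given for closed genes without sensory receptors, weighted to the members' classes of CpG ratio and GC content, in short for weighted closed genes.

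Motifs were searched on both strands from 250 bp before to 50 bp after the 5' end, and a match is a description, not a bound site. The HNF1 motif was in 2.00% of members, 17 genes (95% interval 1.17 to 3.17%), in 0.574% of closed genes, 0.471% of weighted closed genes and 0.171% of higher-CpG genes. All protein-coding genes had it in 0.388%. The HNF4 motif CAAAGTCCA was in 1.41% of members, 12 genes (95% interval 0.730 to 2.45%). Closed genes had it in 0.650%, those without sensory receptors in 0.787% and weighted closed genes in 0.436%. The relaxed form CAAAGNNCA, which includes it, was in 10.4% of members, 7.40% of closed genes and 6.91% of weighted closed genes. For the core motif of the insulator protein CTCF these shares were 1.41%, 0.383% and 0.572%. For the estrogen-related receptor motif TCAAGGTCA they were 0.469%, 0.727% and 0.473%. Over 500 bp on each side of the 5' end the distance shrank to 2.82% against 1.43% for HNF1 and to 3.404% against 2.98% for HNF4, and closed genes without sensory receptors had HNF4 in 3.67%. The forkhead motif TGTTTAC was in 4.93% of members, 4.29% of closed genes and 2.93% of weighted closed genes, and over 500 bp on each side in 10.1% of members and 13.2% of closed genes, so that its direction depended on the window.

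The core promoter boxes gave another order. The TATA box (TATAAA) was in 11.9% of members, 25.9% of closed genes and 17.7% of weighted closed genes, while higher-CpG genes had 6.997%. At its usual place, 40 to 20 bp before the 5' end, it was found in 22 members (2.58%), 6.16% of closed genes and 0.838% of higher-CpG genes, and in 2.40% of all protein-coding genes. The GC box (GGGCGG), a site of SP and KLF factors that holds a CpG itself, was in 19.8% of members, 5.07% of closed genes, 13.1% of weighted closed genes and 64.9% of higher-CpG genes. The CCAAT box was in 32.7%, 41.2%, 38.03% and 38.2%. Motifs of CpG-island promoters were rare among members and closed genes alike. The ETS motif CCGGAAGT was in 0.587% of members, 0.287% of closed genes, 0.447% of weighted closed genes and 7.53% of higher-CpG genes. NRF1 and YY1 motifs were in 0 of 852 members (95% upper bound 0.432%), against 1.94% and 1.86% of higher-CpG genes. Of the 5227 closed genes, 0 had the NRF1 motif and 1 had the YY1 motif. These motifs contain a CpG, which the choice of members used.

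**Figure D4:**
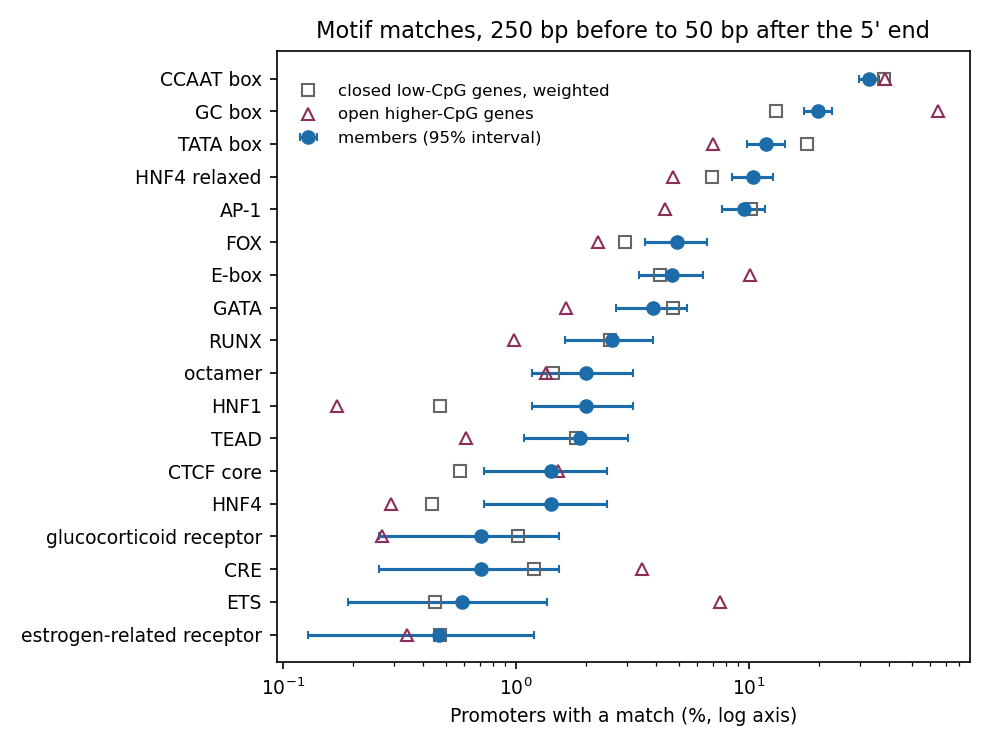
Points give the percentage of promoters with a motif match from 250 bp before to 50 bp after the 5' end (log axis) in members, with exact 95% intervals, in weighted closed low-CpG genes (squares) and in open higher-CpG genes (triangles); motifs at 0 in members are left out. The HNF1 motif stands at 2.00%, 0.471% and 0.171%, and the TATA box at 11.9%, 17.7% and 6.997%.

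Footprints marked most members. In replicate 1, 719 members (84.4%) had at least 1 footprint in the promoter peak, and in replicate 2, which had more footprints in all (493495 against 237471), 826 members (96.9%) did. The mean number per peak was 2.01 and 3.26, with a median footprint length of 10 and 13 bp, against 4.01 and 4.65 and 13 and 19 bp in higher-CpG genes. Within 500 bp of a TSS, only 3 and 6 of the 5227 closed genes had a footprint (0.0574% and 0.115%). Bases with a listed false discovery rate below 0.05 were present in 35 (0.670%) and 62 (1.19%) closed genes and in every member. Footprints come from the same reads as the peaks, so this contrast is a description.

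Within classes of peak height the groups lay closer. In the lowest of 5 height classes, set by the members' own heights, 52.4% of members and 52.3% of higher-CpG genes had a footprint in replicate 1, and 87.1% and 84.1% in replicate 2. In the top class, where higher-CpG genes had a higher median height (10.1 against 4.44 in replicate 1), members had a mean of 3.31 and 4.01 footprints and higher-CpG genes 4.49 and 4.96. In the fourth class, where median heights were 1.95 and 2.05 in replicate 1, the means were 2.53 and 2.90, and in replicate 2 they were 3.98 and 4.63. Footprints covered 12.5% and 25.4% of the members' peak bases, against 26.4% and 39.4% for higher-CpG genes. Of the members' distinct footprints in replicate 1, 73.3% overlapped one of replicate 2, against 87.3% for higher-CpG genes.

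Footprints were densest just upstream of the start. Members had the most in the 20 bp from -40 to -20 bp in replicate 1, 15.1 per 100 genes, and from -60 to -40 bp in replicate 2, 22.3 per 100 genes. The members with the most footprints over both libraries were Emilin1, an elastic fibre protein, with 3 and 11, Prodh2 with 5 and 9, Sh3tc1 with 7 and 7, Amt, the aminomethyltransferase of glycine cleavage, with 11 and 2, and Btc, the growth factor betacellulin, with 6 and 7. For Emilin1 and Amt the counts of the libraries lay far apart, although their heights were 1.55 and 1.67, and 2.72 and 4.92.

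**Figure D5:**
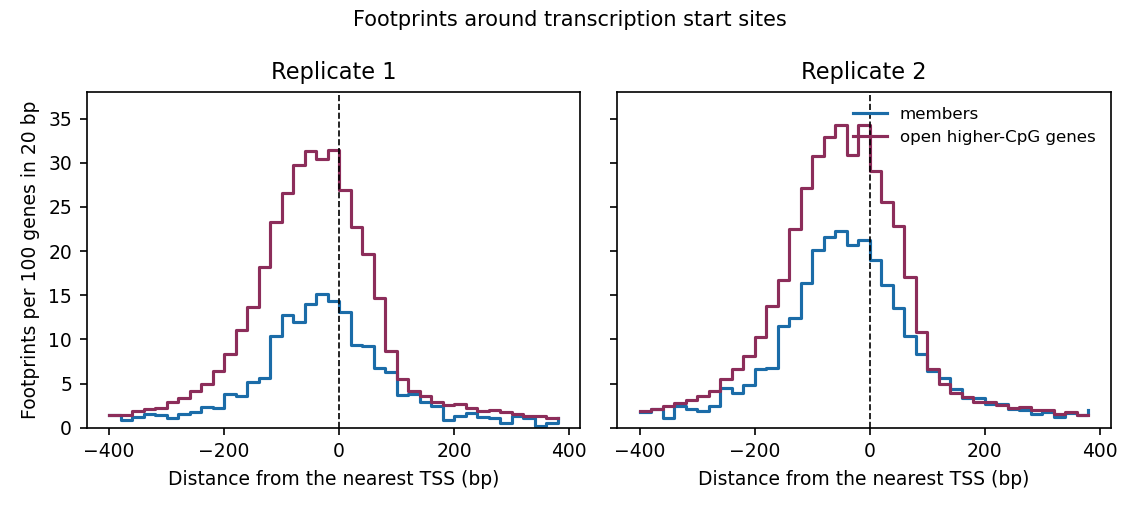
Lines give footprints per 100 genes in 20 bp steps of distance from the nearest TSS, for members and open higher-CpG genes, in each replicate. Both groups are densest just upstream of the TSS, where members reach 15.1 and 22.3 per 100 genes.

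Matches of a motif in the members' peaks were in footprints to different extents. For scale, footprints covered 12.5% and 25.4% of all the members' peak bases, and 26.4% and 39.4% of those of higher-CpG genes. The members' TATA box and AP-1 shares below lie near or under that level. The centre of the CTCF core motif, the site of the insulator protein CTCF, was in a footprint in 17 of 21 matches in replicate 1 and 19 of 20 in replicate 2, against 74.0% and 83.2% of matches in higher-CpG genes. Most of these sites were away from the start, since 16 of 22 members with the motif had it over 150 bp from a TSS. Peaks with the motif were high, at medians of 3.65 and 3.97, and included those of Hsd3b7, Samd9l, Trex1 and Naa80. The GC box was in a footprint in 87 of 218 and 146 of 202 matches (39.9% and 72.3%), against 51.8% and 73.1% in higher-CpG genes. The HNF1 motif was in a footprint in 7 of 15 and 9 of 15 matches, against 8 of 17 and 11 of 18 in higher-CpG genes. HNF4 was in a footprint in 5 of 17 and 11 of 20, against 5 of 28 and 13 of 34. The TATA box was in a footprint in 7 of 55 and 11 of 60 matches (12.7% and 18.3%), against 40.8% and 33.5% in higher-CpG genes. The AP-1 motif TGANTCA was in a footprint in 8 of 51 and 12 of 54 (15.7% and 22.2%), against 8.71% and 22.0%.

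The HNF1 motif lay within the 100 bp upstream of a TSS in 11 of the 15 distinct member peaks that held it, and in 6 of these the site was in a footprint in both libraries. Median heights over the 17 genes with the motif in their peak were 2.52 and 2.36. These medians count the peak that Golt1a shares with predicted genes (3.89 and 5.59) once for each gene, so they are not medians over distinct peaks. Besides the sequences shown above, Atp6v0a4 had a site at -58 bp in a footprint of both libraries, and Hgfac, which activates hepatocyte growth factor, had one at -3 bp in a footprint of replicate 2. Folr1, a folate receptor of the proximal tubule, had one at -96 bp and Glyctk, glycerate kinase, one at -57 bp, without a footprint in either library. The HNF4 motif was in the peaks of 21 members, 5 of them with the site in a footprint in both libraries: Susd2, Aspdh, Nat8, Glyat, which conjugates acids with glycine, and Sult1b1, a sulfotransferase. Its site in Treh at -67 bp and in Agxt2, a mitochondrial aminotransferase, at -21 bp had no footprint.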

How the data were processed

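Both libraries are DNase-seq of kidney on mm10. Per the file descriptions deposited with each library, peaks, footprints and false discovery rates came from filtered alignments of the one library, with no pooling. Aligner, callers, versions and any allowance for CAST/EiJ alleles: not given in the sources used here. A peak's signal in the lists deposited by the authors is its height, whose scale is not stated, and absolute depth is unknown. The footprint lists hold the same false discovery rate of 0.01 in every row, and the false discovery rates (q-values) per base deposited by the authors are listed only below 0.05. The longer of each pair of peak lists was used.

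Gene starts were those of GENCODE M21 basic and sequence that of GRCm38.p6, a C57BL/6J sequence. Overlap needed at least 1 bp, and a promoter's height is that of its highest peak. The members and the 18 lists, 35 families and 22 motifs (those of HNF1, CTCF, NRF1 and YY1 are given by name only) were chosen with earlier results of these data known. Both libraries share a donor code, but each has its own biosample and animal number, and they were taken as separate animals, so n is 2 and no test was run. Intervals are exact (Clopper-Pearson, 95%). Weighting of closed genes used 28 classes of CpG ratio (steps of 0.05) and GC content (5 classes) and was added after the data were seen. Genes were named by rule: the 25 highest members, up to 4 of each list, up to 3 closed genes of each nephron list, the 5 with the most footprints, those nearest the limits, the 3 lowest, the 5 that differed most between libraries and the 5 highest with a peak in 1 library only. A few genes that the rule names are not reported here. Others, such as those named for a motif, cluster or family, were chosen after their values were seen. Overlap, CpG ratio and motif searches were tested on simulated data (2000 intervals, 300 sequences and 880 planted motifs) and gave 100% correct answers. Alternatives were the stricter peak list, promoter widths, 5' ends only, the comprehensive annotation, CpG limits, the upper 50% of peaks by height, other motif windows, leaving out each library and, added after the data were seen, leaving out sensory receptors or shared promoters. Python 3.11.15, numpy 2.4.6, scipy 1.17.1 and matplotlib 3.10.9 were used.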

Additional observations from a re-analysis of the deposited data

How the results depend on the processing

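No paired analysis was possible because both libraries form 1 group and no test was run. The number of members was within 1.5 times of 852 under every alternative except the upper 50% of peaks by height, which left 526. The share of low-CpG genes that was open was 10.3% with the stricter peak list, 12.1% with promoters of 250 bp on each side, 15.9% with 1000 bp, 10.7% with a CpG limit of 0.25, 16.3% with 0.35, 8.22% with the upper 50% of peaks and 17.0% without sensory receptor families. With 1 library alone it was 14.3 to 17.3%. Median heights were 1.55 and 1.80 with the stricter list and 1.92 and 2.28 with the upper 50% of peaks. With a CpG limit of 0.25 the median height in replicate 1 was 1.03, and with 0.35 the medians were 1.30 and 1.49. The share of members with a footprint was 91.5% and 99.2% with the stricter list and 96.8% and 99.8% with the upper 50% of peaks. When members were chosen by 1 library alone, the median height was 1.03 in replicate 1 and 0.964 in replicate 2, and the share with a footprint was 81.1% and 92.2%. These settings change which genes and peaks are counted. The log2 ratio of the members' share over that of closed genes changed sign in 18 of 234 cases, all in 5 motifs (CRE, forkhead, glucocorticoid receptor, octamer and RUNX). The forkhead ratio went from 0.20 to -0.10 with a CpG limit of 0.25, -0.11 with the upper 50% of peaks and -0.39 over 500 bp on each side. The cause was not tested. Of the 234 ratios, 6 moved by more than their error. Of 216 counts of list members 27 moved by more than 1.5 times, among them the distal convoluted tubule and immune cell lists, which had 0 members with the stricter list. Closed genes are those without a called peak at this unknown depth, not genes shown to be inaccessible.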
